A study of Mus musculus with 4 samples.

Results

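The genes described here are 10 of the 20611 gene symbols measured in mouse back skin: the repressors Per1, Per2, Per3, Cry1, Cry2 and Ciart, the activator Arntl (also called Bmal1), and the loop and output genes Dbp, Nr1d1 and Nr1d2 of the circadian clock. They were matched by symbol in each library, and all 10 passed the filter on low counts. The list was chosen by their behaviour in these same libraries, because Per2, Ciart and Dbp lay far higher in the skin given IDMF than in the other libraries. Their values in that comparison are therefore a description. The skin came from male BALB/c mice aged 8 to 9 weeks. All of them received 5% imiquimod cream (47 mg per day) on the back on days 1 to 5. Imiquimod activates Toll-like receptor 7 and gives mouse skin a psoriasis-like inflammation. In IMQ+IDMF (1 library) the cream was followed after about 1 h by a lotion with IDMF, which is isosorbide di-(methyl fumarate). In IMQ+VEH (2 libraries) the lotion held no IDMF, and IMQ (1 library) had the cream alone. Skin was taken on day 6, and every sample had imiquimod. The sources used here do not give the hour of collection. Clock gene levels follow the time of day, so a difference in hour between the libraries and a difference in treatment cannot be told apart.

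The clock is a transcriptional loop that runs in nearly every cell, skin cells included. The proteins ARNTL and CLOCK (or its relative NPAS2) bind E-box elements and switch on the Per, Cry, Ciart, Dbp and Nr1d genes. PER and CRY proteins then repress that activity, and the REV-ERB receptors, made from Nr1d1 and Nr1d2, repress Arntl through ROR elements. DBP and its relatives TEF and HLF activate D-box elements, which NFIL3 represses. In mouse tissues most E-box and D-box genes peak from midday to evening, while Arntl, Clock, Npas2 and Nfil3 peak around the end of the night, and Cry1 follows late between them. Here the first group is called the evening arm and the second the morning arm. In skin the clock is known to act on keratinocyte division and on the hair cycle.

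Promoters from RefSeq (GRCm38.p6) were found for 9 of the 10 members, Per2 being the exception. Each holds 250 bases before and 50 after a transcription start, and the motifs were searched on both strands. Per1 and Arntl have 2 annotated starts each. A gene was counted if any of its promoters held the motif, whereas the shares of all promoters count each promoter, so the units differ. The E-box CACGTG was found in promoters of 3 of these 9 genes, against 7.15% of the 32851 mouse promoters in the same table: once each in Per1 and Cry1, and 3 times in Ciart. The D-box TTATGTAA or TTACGTAA was found in Per3 alone, against 1.06% of all promoters. The ROR and REV-ERB core AGGTCA was found in Per1, Nr1d2 and Arntl, against 16.3% of all. The cyclic AMP element TGACGTCA was in none of the 9, against 1.79% of all. No matches overlapped. The sequences that carry the E-boxes and D-boxes are shown because these letters are what the factors named above are known to bind. They are the 250 bases before the start, 5′ to 3′, with every match to the motifs above in capitals. For Per1 the sequence before its first annotated start is shown. Its capitals TGACCT at -137 are the ROR and REV-ERB core read on the opposite strand.
Ciart (chr3:95882229-95882478, minus strand): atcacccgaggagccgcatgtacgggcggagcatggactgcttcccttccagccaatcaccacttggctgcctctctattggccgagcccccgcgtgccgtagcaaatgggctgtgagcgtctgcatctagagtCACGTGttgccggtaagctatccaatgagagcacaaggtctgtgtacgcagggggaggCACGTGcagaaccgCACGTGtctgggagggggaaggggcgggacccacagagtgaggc
Per3 (chr4:151044666-151044915, minus strand): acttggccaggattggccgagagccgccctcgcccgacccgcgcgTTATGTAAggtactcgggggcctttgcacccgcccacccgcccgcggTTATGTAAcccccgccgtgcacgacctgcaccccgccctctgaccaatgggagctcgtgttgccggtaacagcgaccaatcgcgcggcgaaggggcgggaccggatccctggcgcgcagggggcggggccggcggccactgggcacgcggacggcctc
Per1 (chr11:69098699-69098948, plus strand): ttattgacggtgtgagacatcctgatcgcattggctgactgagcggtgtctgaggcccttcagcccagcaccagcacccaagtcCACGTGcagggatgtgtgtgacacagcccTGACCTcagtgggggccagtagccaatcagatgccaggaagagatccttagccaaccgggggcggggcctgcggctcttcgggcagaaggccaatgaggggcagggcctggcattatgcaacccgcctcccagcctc
Cry1 (chr10:85185055-85185304, minus strand): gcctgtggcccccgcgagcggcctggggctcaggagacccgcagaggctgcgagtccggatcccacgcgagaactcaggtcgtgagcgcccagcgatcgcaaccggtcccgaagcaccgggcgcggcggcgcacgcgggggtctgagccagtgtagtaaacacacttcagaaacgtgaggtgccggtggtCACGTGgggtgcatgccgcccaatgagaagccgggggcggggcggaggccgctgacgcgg
Arntl, 30 bases around its match after the second start (chr7:113207530-113207559, plus strand): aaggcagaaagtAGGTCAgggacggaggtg
Counted from the start, the Ciart E-boxes lie at -116, -58 and -44, the Cry1 E-box at -60, and the Per3 D-boxes at -205 and -158. The Per1 E-box lies at -166 from the first annotated start of Per1, and the promoter of its second start held no match. The Arntl core lies 32 bases after the second annotated start of Arntl. Dbp, Nr1d1 and Cry2 had no match to any of the motifs in this window, which says only that these letters are not there. Among further evening-arm genes described below, Tef and Bhlhe41 also held the E-box. A match is a description of the sequence and not a site shown to be bound.

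**Figure D1:**
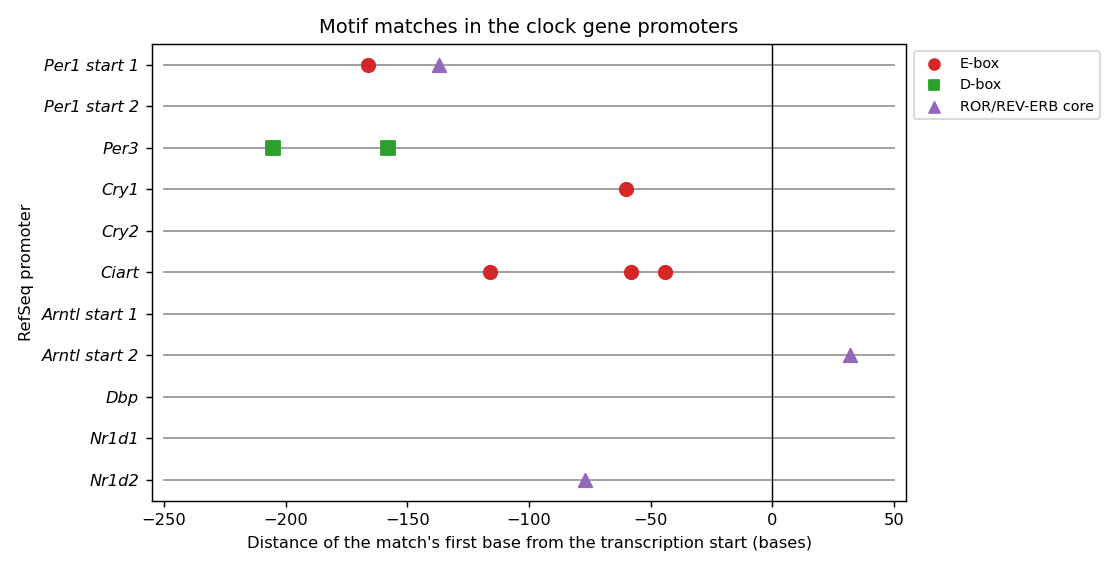
Positions of motif matches (symbols) in the RefSeq promoters of 9 clock genes, 1 row per annotated start, with distance from the start in bases on the x axis and the start marked by the vertical line. Ciart carries 3 E-box matches, Per3 carries 2 D-box matches, and the Arntl match to the ROR and REV-ERB core lies after the start.

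Libraries held 21167149 to 26639628 counts. The labels name the libraries as independent biological replicates, but only IMQ+VEH has more than 1, so the spread within that pair stands for all groups. The 8 keratinocyte markers read as a check of the tissue were abundant, with a sum of 53456 CPM (a count's share of its library, scaled by TMM) in IMQ+IDMF, 46465 and 58305 CPM in IMQ+VEH and 61618 CPM in IMQ. Other cell types varied more: the sum of 7 fibroblast markers was 2183 CPM in IMQ+IDMF, 6367 and 3322 CPM in IMQ+VEH and 1706 CPM in IMQ. The sum of 6 skeletal muscle markers was 19275 CPM in IMQ+IDMF, 20537 and 14616 CPM in IMQ+VEH and 10689 CPM in IMQ. In bulk skin, fewer cells of a type and less RNA per cell cannot be told apart.

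Per length of transcript, Nr1d1 was the most abundant member, at 22.1 to 36.7 FPKM (reads per length of transcript, scaled by the authors to library size) over the 4 libraries. Its range lay above that of Nr1d2 (15.2 to 18.9 FPKM) and overlapped that of Dbp (8.61 to 27.2 FPKM), and those of Nr1d2 and Dbp overlapped each other. Below these came Arntl (5.19 to 7.77 FPKM), Cry2 (5.27 to 8.11), Per1 (4.62 to 6.41), Ciart (2.76 to 7.89), Per3 (3.53 to 4.50) and Cry1 (3.18 to 3.66), each of which overlapped its neighbour in this order. Per2, at 0.398 to 1.41 FPKM, lay below every other member. Per2, Dbp and Ciart varied most between libraries, with a highest level 3.55, 3.16 and 2.86 times the lowest. Cry1 (1.15 times), Nr1d2 (1.25 times) and Per3 (1.28 times) varied least.

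Setting IMQ+IDMF against IMQ+VEH asks what IDMF adds to the lotion. In IMQ+IDMF 8 of the 10 clock genes were above all 3 other libraries, where 19.2% of all genes tested were. Arntl, the activator of the loop, was below all 3, where 19.5% were. For Per3, Cry1 and Nr1d1 the 95% counting interval of IMQ+IDMF overlapped that of another library. Ciart was about 2.30-fold, Per2 1.99-fold and Dbp 1.85-fold its level in IMQ+VEH, while Arntl was at 0.705-fold. The other differences were below 1.4-fold. No member was called in this comparison, that is, none had an adjusted p under 0.05 in edgeR.

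Among the PER repressors, Per2 (chromosome 1, 91415982 to 91459324, GRCm38) had 245 counts or 10.96 CPM in IMQ+IDMF, 145 and 120 counts or 5.17 and 5.85 CPM in IMQ+VEH, and 82 counts or 3.23 CPM in IMQ. The IMQ+IDMF library was high, with a 95% counting interval of 9.63 to 12.4 CPM, and the IMQ+VEH pair lay close together. The log2 fold change against IMQ+VEH was 0.99 (SE 0.45). Per1 (chromosome 11, 69095217 to 69109960), which glucocorticoids and light also induce, had 39.2 CPM in IMQ+IDMF, 27.0 and 29.8 CPM in IMQ+VEH and 29.6 CPM in IMQ, a log2 fold change of 0.47 (SE 0.28). Only the IMQ+IDMF library stood apart for Per1, since the other 3 lay between 27.0 and 29.8 CPM. Per3 (chromosome 4, 151003652 to 151044665) had 35.9 CPM in IMQ+IDMF, 29.9 and 28.6 CPM in IMQ+VEH and 32.1 CPM in IMQ (0.29, SE 0.28), and here IMQ lay between IMQ+IDMF and the IMQ+VEH pair. The counting intervals of Per3 in IMQ+IDMF (33.4 to 38.4 CPM) and IMQ (29.9 to 34.4 CPM) overlapped.

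Ciart (chromosome 3, 95878503 to 95882251), which codes for the repressor CHRONO and whose promoter holds the 3 E-boxes shown above, had 290 counts or 13.0 CPM in IMQ+IDMF, 118 and 146 counts or 4.21 and 7.12 CPM in IMQ+VEH, and 165 counts or 6.50 CPM in IMQ. IMQ+IDMF was high, and the IMQ+VEH pair lay on either side of IMQ. The log2 fold change against IMQ+VEH was 1.20 (SE 0.45), and the difference was 1.61 to replicate 1 and 0.86 to replicate 2. The CRY repressors differed less between groups. Cry1 (chromosome 10, 85131700 to 85185064) had 14.2 CPM in IMQ+IDMF, 11.9 and 12.5 CPM in IMQ+VEH and 13.0 CPM in IMQ (0.22, SE 0.36). Its counting interval in IMQ+IDMF (12.7 to 15.8 CPM) overlapped those of the other libraries, such as IMQ (11.6 to 14.4 CPM). Cry2 (chromosome 2, 92403646 to 92434043) had 37.5 CPM in IMQ+IDMF, 39.7 and 29.8 CPM in IMQ+VEH and 28.8 CPM in IMQ (0.11, SE 0.30). It was the only member for which IMQ+IDMF lay between the IMQ+VEH libraries. Exons of Cry2 overlap the noncoding D930015M05Rik on the other strand.

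Dbp (chromosome 7, 45705088 to 45710203), the D-box activator and a common readout of clock output, had 1247 counts or 55.8 CPM in IMQ+IDMF, 894 and 585 counts or 31.9 and 28.5 CPM in IMQ+VEH, and 471 counts or 18.6 CPM in IMQ. The counting interval in IMQ+IDMF was 52.7 to 58.9 CPM, and the 3 treatments did not overlap. The log2 fold change against IMQ+VEH was 0.88 (SE 0.28). Sphk2 shares exon sequence with Dbp on the opposite strand, and the sources used here do not give the strand setting of the counts, so reads of the 2 genes cannot be told apart. Sphk2 itself had 76.3 CPM in IMQ+IDMF, 78.6 and 80.5 CPM in IMQ+VEH and 83.6 CPM in IMQ, an order opposite to that of Dbp. Nr1d1 (chromosome 11, 98767932 to 98775333), which codes for REV-ERB alpha, had 122.1 CPM in IMQ+IDMF, 121.3 and 104.8 CPM in IMQ+VEH and 81.4 CPM in IMQ (0.11, SE 0.27). IMQ+IDMF was above replicate 1 by a log2 difference of only 0.0091, and with total counts or the authors' FPKM it lay between the IMQ+VEH libraries. Nr1d1 exons overlap those of Thra on the other strand, which had 34.2 CPM in IMQ+IDMF, 45.3 and 35.4 CPM in IMQ+VEH and 31.2 CPM in IMQ. Nr1d2 (chromosome 14, 18204054 to 18239127), which codes for REV-ERB beta, had 115.6 CPM in IMQ+IDMF, 97.0 and 97.3 CPM in IMQ+VEH and 96.9 CPM in IMQ (0.25, SE 0.26). The 3 libraries without IDMF were almost equal for Nr1d2.

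Arntl (chromosome 7, 113207465 to 113314126) had 395 counts or 17.7 CPM in IMQ+IDMF, 622 and 574 counts or 22.2 and 28.0 CPM in IMQ+VEH, and 676 counts or 26.6 CPM in IMQ. IMQ+IDMF was low, with a counting interval of 15.96 to 19.5 CPM, and IMQ lay within the IMQ+VEH pair. The log2 fold change against IMQ+VEH was -0.50 (SE 0.32), with -0.33 to replicate 1 and -0.66 to replicate 2. It was the only member below both IMQ+VEH libraries. Its exons overlap the antisense transcript Gm45355.

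**Figure D2:**
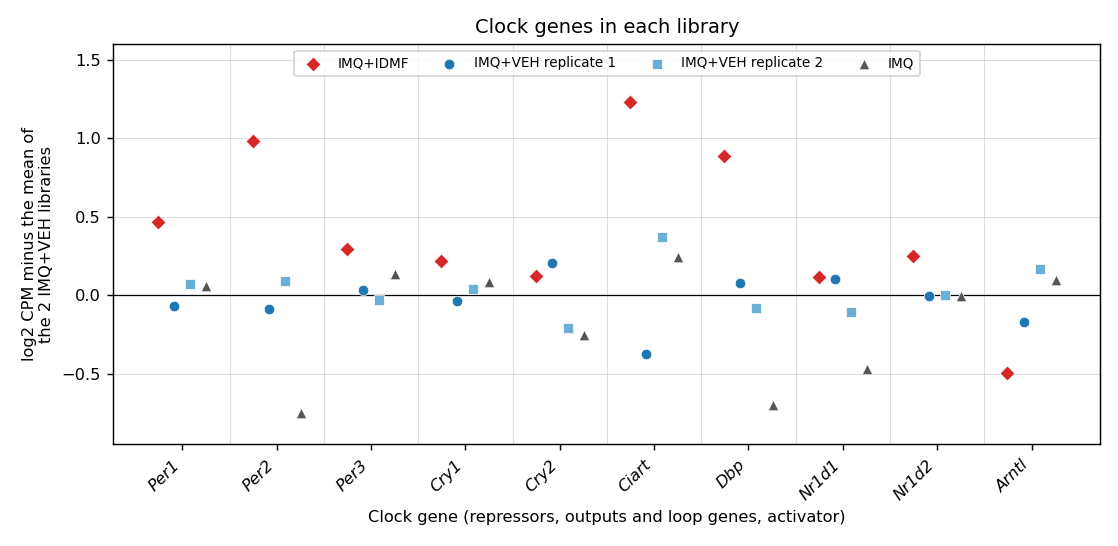
Level of each clock gene in each library, as log2 CPM minus the mean of the 2 IMQ+VEH libraries (y axis), with 1 symbol per library and no error bars. IMQ+IDMF (diamonds) is the highest of the 4 for 8 genes, by as little as 0.0091 for Nr1d1, which lies within the IMQ+VEH pair under total counts or FPKM, and the lowest for Arntl.

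With total counts or FPKM in place of TMM scaling, IMQ+IDMF was above all 3 other libraries for 7 members in place of 8. The median log2 fold change of the members was 0.27, against -0.0083 over all genes tested. Per2, Ciart and Dbp entered the list through this position, so nothing is read from the count against the background. EdgeR's quasi-likelihood test called 0 of 10 members and 0 of the 15068 genes, a background of 0%. An unadjusted p under 0.05 was found for 306 genes, and DESeq2 called 0 genes.

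Setting the 2 arms against each other within a library removes the library's total. Every one of the 9 other members had its highest ratio to Arntl in IMQ+IDMF. For a gene that is itself highest in IMQ+IDMF this follows from Arntl being lowest there, so only the sizes are described. The FPKM ratio of Dbp to Arntl was 5.24 in IMQ+IDMF, 2.45 and 1.78 in IMQ+VEH and 1.20 in IMQ. The ratio of Per2 to Arntl was 0.272 in IMQ+IDMF, 0.104 and 0.0953 in IMQ+VEH and 0.0556 in IMQ. For both genes the treatments were ordered in the same way, with no overlap. The ratio of Ciart to Arntl was 1.52 in IMQ+IDMF, 0.404 and 0.548 in IMQ+VEH and 0.528 in IMQ, and that of Per1 to Arntl was 1.23 in IMQ+IDMF, 0.690 and 0.618 in IMQ+VEH and 0.645 in IMQ. For these 2 genes IMQ lay within the IMQ+VEH pair, and only IMQ+IDMF stood apart. On counts, the log2 ratio to Arntl differed between IMQ+IDMF and the IMQ+VEH mean by 1.74 for Ciart, 1.49 for Per2, 1.38 for Dbp and 0.96 for Per1, where the range within the IMQ+VEH pair was 0.42, 0.16, 0.50 and 0.20 for the same genes. For Cry2 the difference (0.62) was smaller than that within the IMQ+VEH pair (0.75). The Dbp to Nfil3 ratio, of the D-box activator to the D-box repressor, was 8.43 in IMQ+IDMF, 3.26 and 2.83 in IMQ+VEH and 1.75 in IMQ, with Dbp highest and Nfil3 lowest in IMQ+IDMF.

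**Figure D3:**
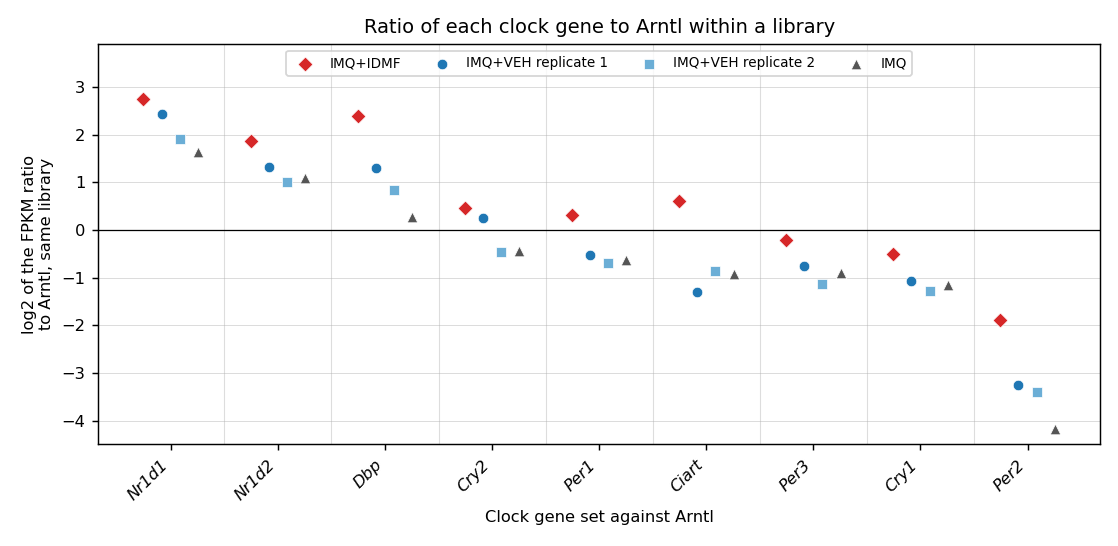
Ratio of each clock gene to Arntl in the same library (y axis, log2 of the FPKM ratio), with 1 symbol per library and genes ordered by level. The IMQ+IDMF symbol is the highest of the 4 for all 9 genes, and for Dbp, Per2 and Nr1d1 both IMQ+VEH libraries also lie above IMQ.

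Genes of the arms outside the list were set beside the members. Of the evening arm, Tef, Usp2 and Bhlhe41 were above all 3 other libraries in IMQ+IDMF, and Hlf was above both IMQ+VEH libraries. Of the morning arm, Clock and Nfil3 were below all 3, and Npas2 was below both IMQ+VEH libraries. Members included, IMQ+IDMF was above both IMQ+VEH libraries for 11 of 12 evening-arm genes (27.7% of all genes tested) and below both for 4 of 4 morning-arm genes (27.5%). It was above all 3 other libraries for 10 of 12, with 9 under total counts or FPKM (19.2% of all genes), and below all 3 for 3 of 4 (19.5%). The median log2 fold change, members included, was 0.45 in the evening arm and -0.47 in the morning arm. For the further genes alone it was 0.46 in the evening arm and -0.44 in the morning arm. The members were listed for their values in these same libraries. Nothing is therefore read from the counts and medians that include them against the background. The further genes were also chosen with earlier results of these data known, so their values are a description too. None of these 7 further genes was called by edgeR or DESeq2, and none had an unadjusted p under 0.05 in either.

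Tef, a PAR bZIP factor like Dbp, had 193.6 CPM in IMQ+IDMF, 136.6 and 140.4 CPM in IMQ+VEH and 104.6 CPM in IMQ (log2 fold change to IMQ+VEH 0.48, SE 0.27). Its relative Hlf had 17.2 CPM in IMQ+IDMF, 7.91 and 12.3 CPM in IMQ+VEH and 19.0 CPM in IMQ (0.77, SE 0.37), so that IMQ was highest. Usp2, a deubiquitinase that acts on clock proteins, had 75.3 CPM in IMQ+IDMF, 55.8 and 55.2 CPM in IMQ+VEH and 37.6 CPM in IMQ (0.44, SE 0.26). Tef and Usp2 had the order seen for Dbp, with the IMQ+VEH pair close together between the other 2 libraries. Bhlhe41, a further E-box repressor, had 22.8 CPM in IMQ+IDMF, 20.1 and 15.2 CPM in IMQ+VEH and 9.14 CPM in IMQ (0.37, SE 0.34). Exons of Tef, Usp2 and Bhlhe41 also overlap annotated transcripts on the other strand.

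Nfil3, the D-box repressor, had 178 counts or 7.96 CPM in IMQ+IDMF, 332 and 251 counts or 11.8 and 12.2 CPM in IMQ+VEH, and 322 counts or 12.7 CPM in IMQ (-0.60, SE 0.39). The 3 libraries without IDMF lay close together and IMQ+IDMF was low. Clock, the partner of ARNTL, had 48.3 CPM in IMQ+IDMF, 65.1 and 51.1 CPM in IMQ+VEH and 77.2 CPM in IMQ (-0.26, SE 0.28), with IMQ+VEH replicate 2 near IMQ+IDMF. Npas2, the relative of CLOCK, had only 43 counts in IMQ+IDMF, 86 and 44 in IMQ+VEH and 42 in IMQ (-0.44, SE 0.69), and IMQ had the lowest CPM, 1.65.

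**Figure D4:**
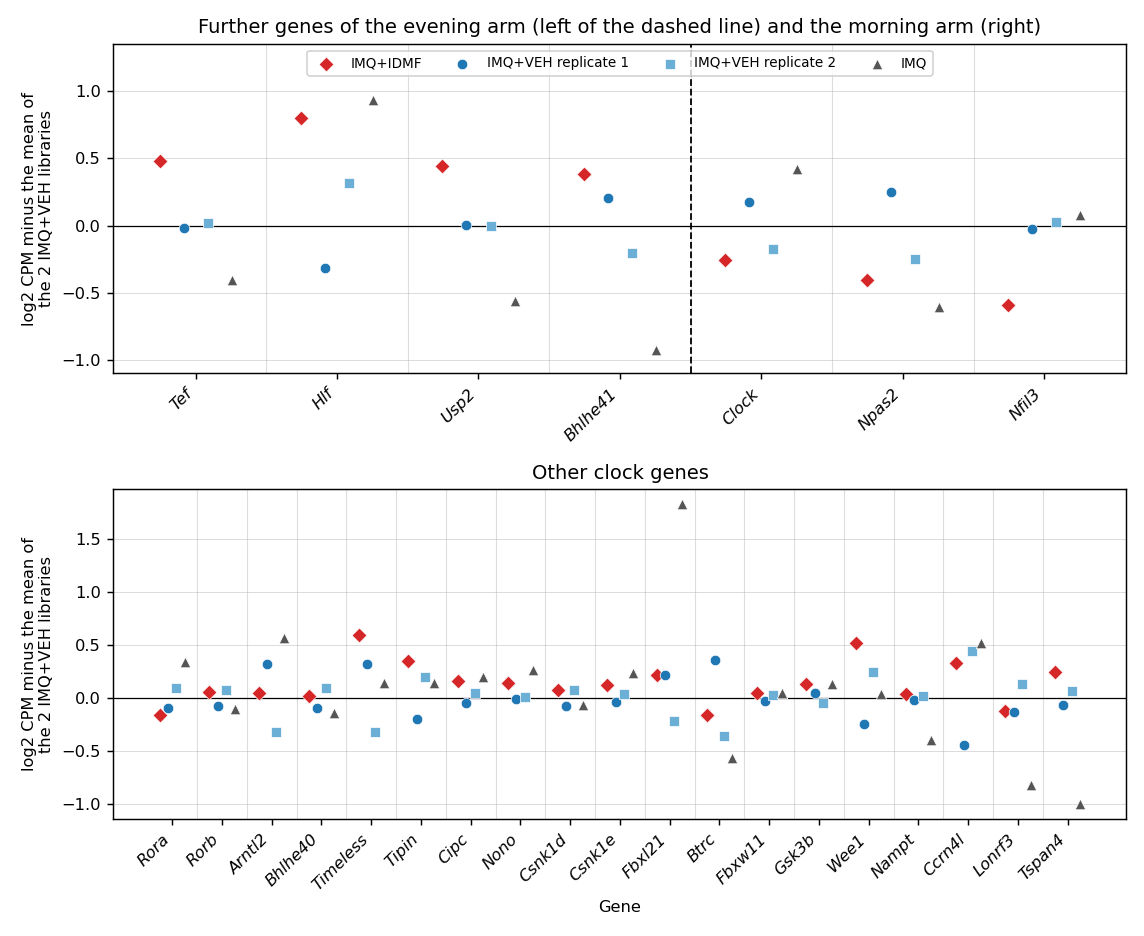
Further clock genes in each library, as log2 CPM minus the mean of the 2 IMQ+VEH libraries (y axis), with 1 symbol per library and no error bars. In the upper panel IMQ+IDMF is above both IMQ+VEH libraries for the 4 evening-arm genes and below both for the 3 morning-arm genes, and in the lower panel other clock genes lie on both sides of 0.

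Across the wider list of 28 clock genes outside the members, which includes those 7, IMQ+IDMF was above all 3 other libraries for 10 (19.2% of all genes) and below all 3 for 4 (19.5%), and 0 were called. For the 21 genes outside the arms these counts were 7 and 2. The median log2 fold change was 0.13. Of the activators and ROR or NFIL3 factors, Clock, Nfil3 and Rora were below all 3. Among the kinases, ubiquitin ligases and proteases that set the stability of PER and CRY proteins, Usp2 and Gsk3b were above all 3, Gsk3b by a log2 difference of only 0.0031. Csnk1d, a kinase of PER proteins, was nearly level at 144.3 CPM in IMQ+IDMF, 129.7 and 144.5 CPM in IMQ+VEH and 131.1 CPM in IMQ. Of the 6 further repressors and partners, Bhlhe41, Timeless and Tipin were above all 3. Timeless, which also acts at replication forks in mammals, had 17.4 CPM in IMQ+IDMF, 14.4 and 9.22 CPM in IMQ+VEH and 12.7 CPM in IMQ (0.56, SE 0.38). Of the 7 output genes, Tef, Wee1, Nampt and Tspan4 were above all 3, Nampt by only 0.01306. In the authors' FPKM, Gsk3b and Nampt in IMQ+IDMF were below IMQ+VEH replicate 1. Wee1, a kinase that delays entry into mitosis, had 15.4 CPM in IMQ+IDMF, 9.02 and 12.8 CPM in IMQ+VEH and 11.03 CPM in IMQ (0.50, SE 0.38).

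The comparison of IMQ+VEH with IMQ asks what the lotion without IDMF does. It shares the IMQ+VEH libraries with the comparison above, so the values of the 2 are not independent. Per2, Dbp and Nr1d1 were higher in both IMQ+VEH libraries than in IMQ, while Arntl and Cry1 were about level. The log2 fold changes were 0.77 (SE 0.48) for Per2, 0.70 (SE 0.29) for Dbp and 0.47 (SE 0.28) for Nr1d1. They were 0.27 (SE 0.30) for Cry2, 0.0027 (SE 0.26) for Nr1d2, -0.06 (SE 0.29) for Per1, -0.13 (SE 0.28) for Per3, -0.09 (SE 0.36) for Cry1 and -0.09 (SE 0.31) for Arntl. Ciart had -0.20 (SE 0.47), but its direction depended on the IMQ+VEH library, with -0.62 for replicate 1 and 0.13 for replicate 2. Both IMQ+VEH libraries were above IMQ for 5 of 10 members, among them Cry2 and Nr1d2 by a smallest difference of 0.05 and 0.00048, and for 33.5% of all genes. Both were below IMQ for Per3 and Cry1, against 35% of all genes, though in the authors' FPKM replicate 1 was above IMQ for these genes. IMQ+IDMF lay above both IMQ+VEH libraries and these above IMQ for Per2, Dbp, Nr1d1 and Nr1d2, an order found in 7.83% of all genes. For Nr1d1, IMQ+IDMF was above replicate 1 by only 0.0091, and lay within the IMQ+VEH pair under total counts or FPKM. The list was chosen on high values in IMQ+IDMF, which this order requires, so nothing is read from it against the background. EdgeR called 0 of 10 members, where it called 0.664% of all genes (100 of 15068). Dbp alone had an unadjusted p under 0.05, and DESeq2 called 0 members. Of the further genes, Bhlhe41 (0.95, SE 0.36), Usp2 (0.56, SE 0.27) and Tef (0.41, SE 0.28) were higher in both IMQ+VEH libraries than in IMQ, and Hlf (-0.91, SE 0.37) was lower in both. Of the morning arm, Npas2 (0.66, SE 0.70) was higher in both, and Clock (-0.41, SE 0.27) and Nfil3 (-0.08, SE 0.38) were lower in both, though in the authors' FPKM replicate 1 was above IMQ for Nfil3. None of the 28 was called, and Hlf, Bhlhe41 and Tspan4 had an unadjusted p under 0.05.

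IMQ+IDMF against IMQ is 1 library against 1, with no replicate check. The log2 CPM difference was 1.74 for Per2, 1.58 for Dbp, 0.99 for Ciart, 0.58 for Nr1d1, 0.41 for Per1, 0.38 for Cry2, 0.25 for Nr1d2, 0.16 for Per3 and 0.13 for Cry1, and it was -0.59 for Arntl. Per2 and Dbp were more than 2-fold higher, as were 6.78% of all genes, and no member was more than 2-fold lower, as were 4.51%. IMQ was the lowest library for skeletal muscle markers too, with the sums given above, and its sum of 5 adipocyte markers was 467 CPM, against 1361 CPM in IMQ+IDMF and 1758 and 1267 CPM in IMQ+VEH. The part of these tissues in the low Per2 and Dbp of IMQ was not tested.

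Between IMQ+IDMF and IMQ+VEH, muscle and adipocyte sums did not stand apart, since IMQ+IDMF lay within the IMQ+VEH pair for both. Other marker sums did. The sum of 10 hair follicle markers was 56.3 CPM in IMQ+IDMF, 29.4 and 34.4 CPM in IMQ+VEH and 76.7 CPM in IMQ. In IMQ+IDMF 5 of the 10 were above all 3 libraries (19.2% of all genes tested), while Krt85 was at 0 in both IMQ+VEH libraries and Krt35 in replicate 2. The sum of 7 myeloid markers was 258 CPM in IMQ+IDMF, 687 and 393 CPM in IMQ+VEH and 513 CPM in IMQ. In IMQ+IDMF 6 of the 7 were below all 3 (19.5% of all genes tested) and none was at 0. The sum of 7 fibroblast markers in IMQ+IDMF was below both IMQ+VEH libraries, with 2 of the 7 below all 3 libraries, near the 19.5% of all genes. The 5 T and NK cell markers summed to 4.11 CPM in IMQ+IDMF, 9.34 and 7.71 CPM in IMQ+VEH and 11.5 CPM in IMQ, and the 3 Schwann cell markers to 73.2 CPM in IMQ+IDMF, 148.3 and 82.0 CPM in IMQ+VEH and 18.6 CPM in IMQ. The neutrophil, endothelial and sebaceous gland sums in IMQ+IDMF lay within the IMQ+VEH pair. Of the 3 neutrophil markers, however, Csf3r and Mmp9 were below all 3 other libraries in IMQ+IDMF (19.5% of all genes tested). The sum was mostly Cxcr2, which had 1307 counts there, against 93 for Csf3r and 118 for Mmp9. The part of these cell types in the clock gene values was not tested.

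Glucocorticoid hormone is known to induce Per1, and 12 glucocorticoid-responsive genes were read beside it. IMQ+IDMF was above both IMQ+VEH libraries for 6 of the 12 (27.7% of all genes) and below both for 1 (27.5%), and 0 were called. The median log2 fold change was 0.08. Fkbp5, a chaperone partner of the glucocorticoid receptor and a common readout of the hormone, had 83.0 CPM in IMQ+IDMF, 74.3 and 66.5 CPM in IMQ+VEH and 35.3 CPM in IMQ. It separated IMQ from the other 3 libraries, with a log2 fold change of 0.24 (SE 0.26) for IMQ+IDMF against IMQ+VEH and 0.99 (SE 0.27) for IMQ+VEH against IMQ, where edgeR's adjusted p was 0.179. The metallothionein gene Mt2 had 131.8 CPM in IMQ+IDMF, 97.5 and 111.6 CPM in IMQ+VEH and 108.6 CPM in IMQ (0.33, SE 0.27). Pdk4 (-0.49, SE 0.53) and Cebpd (-0.26, SE 0.37) were lower on average but differed within the IMQ+VEH pair. Pdk4 had 149.5 CPM in IMQ+IDMF, 326.8 and 93.7 CPM in IMQ+VEH and 133.7 CPM in IMQ, and Cebpd had 16.6 CPM in IMQ+IDMF, 24.5 and 15.2 CPM in IMQ+VEH and 15.9 CPM in IMQ.

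Likeness of pattern was measured as the root mean square distance between log2 CPM profiles, each centred on its mean over the 4 libraries. Among the members, Dbp was nearest to Per2, at a distance of 0.13, and Arntl was farthest from it, at 0.84. Per2 and Dbp were both listed for high values in IMQ+IDMF, so their nearness follows in part from that choice. Among 10072 other genes with a mean log2 CPM of at least 3, the nearest to Per2 were Nrg4 (0.12), Tcap (0.17), Micall2 (0.19), Slc25a1 (0.20) and Ccnd2 (0.20). Nrg4, a growth factor gene, had 341 counts in IMQ+IDMF, 208 and 198 in IMQ+VEH and 107 in IMQ. Tcap codes for a protein of the muscle sarcomere and had 17164 counts in IMQ+IDMF, 13270 and 10976 in IMQ+VEH and 7915 in IMQ. The nearest to Arntl were Stk17b (0.048), Tmem68 (0.049), Pyroxd1 (0.053), Ankk1 (0.054) and Krt23 (0.057). The distances rest on 4 libraries.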

How the data were processed

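RNA from whole back skin was sequenced in single-end runs of 50 cycles, per the labels' protocols. For each library the authors deposited a raw count and an FPKM value per gene symbol, per the file headers. TopHat2, Cufflinks and HTSeq, with GRCm38 and mm10 as builds, are listed in the submitters' processing notes. The sources used here do not give their versions, the annotation, the strand setting or how multiply mapped reads were treated.

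Counts were tested with the two-sided quasi-likelihood F test of edgeR 4.0.16 under R 4.3.3, with TMM scaling, filterByExpr by group and 1 mean per group in a fit of all 4 libraries. Benjamini-Hochberg adjustment ran over 15068 genes with a threshold of 0.05. The IMQ+VEH pair alone gives a residual degree of freedom (1 per gene), beside 11.2 prior ones. The single libraries were assumed to vary like that pair. Each standard error (SE) is the size of the log2 fold change over the root of its F value. Differences between single libraries are in log2 CPM with a prior count of 2. Counting intervals are exact Poisson intervals at 95% and cover counting error only. FPKM served for levels across genes and for ratios. The fit was tested on simulated data with the same 4 libraries. There it found 16 of 50 genes given a 2-fold change and 42 of 50 given a 4-fold change. It also called 10 genes that had been given none.

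The members, the lists of clock, glucocorticoid and marker genes and the tests were chosen with earlier results of these data known. All 10 members and the 7 further arm genes were named whatever their values. So were, beyond these, the clock genes among the 6 with the largest change between IMQ+IDMF and IMQ+VEH, and the 4 such glucocorticoid genes. Other genes named were chosen after their values were seen, except the 5 nearest to Per2 and to Arntl. Gene positions and exon overlaps came from GENCODE M21 (GRCm38). Some genes of the wider clock list entered its counts and are not reported here by name. The Ccrn4l symbol of the files was used for Noct. Alternatives were DESeq2 1.42.0, its size factors or total counts in edgeR, other filters, a robust fit, other groupings, leaving out libraries, and FPKM in place of counts.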

Additional observations from a re-analysis of the deposited data

How the results depend on the processing

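The direction of the log2 fold change of each of the 10 clock genes between IMQ+IDMF and IMQ+VEH was kept under every alternative, with the exception of Cry2, which had -0.08 without IMQ+VEH replicate 2 and 0.33 without replicate 1. Leaving out an IMQ+VEH replicate left no residual degrees of freedom and so gave values with no test. Over all alternatives Per2 had 0.90 to 1.21, Ciart 0.86 to 1.62, Dbp 0.81 to 1.08 and Arntl -0.67 to -0.33, and no member was called. Between IMQ+VEH and IMQ, Arntl had -0.26 to 0.07, Ciart -0.63 to 0.13 and Per1 -0.13 to 0.0087, with both signs, when a replicate was left out. With total counts Per1 became 0.0061, Wee1 0.040 and Mt2 0.0095 in that comparison, each of the opposite sign to the TMM value. Without a filter, edgeR called 16 genes between IMQ+IDMF and IMQ+VEH, against 0, and 424 between IMQ+VEH and IMQ, against 100. DESeq2 called 202 in the second comparison. The cause was not tested. Fkbp5 was called in the second comparison only without a filter, and no other gene of the clock and glucocorticoid lists was called under any alternative. The number of evening-arm genes with IMQ+IDMF above the libraries compared was 10 or 11, and of morning-arm genes below them 3 or 4, whichever library was left out, a choice made after seeing the data. For members it was 8 or 9. Differences of the ratios to Arntl moved by less than the spread of the IMQ+VEH pair when FPKM replaced counts. No paired analysis was possible because only IMQ+VEH has more than 1 replicate. The single IMQ+IDMF and IMQ libraries limit every comparison, and 0 calls does not show that groups were alike.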
